A study of Mus musculus with 3 samples.

Results

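The 8 genes described here encode parts of the complement system that myeloid cells transcribe: the 3 chains of C1q (C1qa, C1qb and C1qc), the central component C3, factor B (Cfb) and properdin (Cfp) of the alternative pathway, and the receptors for the C3a and C5a fragments (C3ar1 and C5ar1). They were taken by symbol from the feature list of the libraries, where each matched 1 of 53802 gene identifiers. Single-cell 3′ RNA-seq had been made from Ly6Chi monocytes sorted from the livers of male C57BL/6 mice aged 8 weeks, 24 h after acute liver injury by acetaminophen. All mice were fasted for 12 h and given 300 mg/kg acetaminophen into the peritoneum, and chow was returned after 2 h. The control group had 2 libraries, numbered 1 and 3, from Commd10fl/fl mice, whose Commd10 alleles are floxed but intact. The knockout group had 1 library, numbered 4, from LysMDCommd10 mice, in which floxed Commd10 is deleted by Cre under the Lyz2 (LysM) promoter, so in myeloid cells generally and not in monocytes alone. Whether 1 mouse or several gave a library is not stated, and no uninjured library was analysed here. The p-values below therefore concern spread between libraries, possibly technical. For each gene that spread was estimated largely from the other genes tested. Each knockout value rests on 1 library, which adds no spread of its own.

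Complement is a cascade of plasma proteins that marks surfaces for uptake and recruits leukocytes. Most of its proteins are made by hepatocytes, whereas C1q and properdin come largely from myeloid cells. C1q is assembled from equal numbers of its A, B and C chains and binds antibody complexes and dying cells. C3 is cleaved to C3b, which is bound by factor B to form the alternative pathway convertase that properdin stabilises. The released C3a and C5a peptides signal through C3ar1 and C5ar1, which are receptors coupled to G proteins.

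The deposited libraries held 40092348 (control 1), 72867668 (control 3) and 30302932 (knockout 4) UMIs (unique molecular identifiers, each standing for 1 captured mRNA molecule). After filters on genes and mitochondrial UMIs and removal of 27 to 45 cells per library with markers of lymphocytes, mature neutrophils, endothelium or stellate cells, 4077, 7404 and 4430 monocyte-macrophage cells remained, with medians of 8805, 8178 and 6876 UMIs per cell. The sorted cell type was checked by its defining genes: Ccr2, the chemokine receptor of inflammatory monocytes, lay at 869 to 954 CPM (UMIs of a gene divided by all UMIs of the same cells, scaled to 1000000), and Ly6c2, the gene of the sorted antigen, at 486 to 608. Commd10 itself was at 17.6 CPM in control 1, 10.3 in control 3 and 8.43 in knockout 4, so the knockout library was lowest but not without reads, and the deposited counts do not show whether those reads cross the deleted exons. Between 8 and 26 cell barcodes were shared by a pair of libraries, at most 0.540% of either. Doublets were not removed. High-UMI cells, those above 2 times the median of their own library, were 8.36% of control 1, 11.1% of control 3 and 2.46% of knockout 4. Calls of members that were lost without them are named below.

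Cells with at least 3000 UMIs were thinned to 3000 and sorted into 7 groups by marker genes, none of which is a complement gene. Cells with 3 of 5 markers such as Ace, Spn and Treml4 were called patrolling-like. The next groups were high in S100a8 and S100a9, in Arg1, in Gpnmb, Lpl, Trem2 and Spp1 (called lipid-associated-like), or in the MHC class II genes H2-Aa, H2-Ab1, H2-Eb1 and Cd74. Cells high in Vcan, Ly6c2, Plac8 and F13a1 were called inflammatory monocyte-like, and the rest are the remaining cells. The mix differed between libraries: Arg1-high cells were 199 of 3575 in control 1, 138 of 6718 in control 3 and 739 of 3691 in knockout 4, while inflammatory monocyte-like cells were 1174, 3445 and 1103 cells. The summed levels of markers of resident Kupffer cells (Clec4f, Timd4, Cd5l, Folr2, Vsig4 and Marco) were 9.12, 4.46 and 4.76 CPM. Those of conventional dendritic cells (Xcr1, Clec9a, Flt3, Zbtb46 and Cd209a), which were not removed, were 2.78 in control 1, 10.1 in control 3 and 1.79 in knockout 4.

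The C1q genes lie side by side on mouse chromosome 4 of GRCm38, all on the minus strand: C1qb at 136880129 to 136886187, C1qc at 136889804 to 136893065 and C1qa at 136895917 to 136898803. C3 is on chromosome 17 (57203970 to 57228136), as is Cfb (34856374 to 34862518), C3ar1 on chromosome 6 (122847138 to 122856161), C5ar1 on chromosome 7 (16246743 to 16259540) and Cfp on the X chromosome (20925454 to 20931555), all on the minus strand. Cfb overlaps the gene model Gm20547 on its own strand, so its counts are uncertain. Promoter sequences are given for C1qb and C1qc, whose levels moved together across the cell groups, and for C3, which moved the other way. Each runs from 250 bases before to 50 bases after the start, 5′ to 3′ on the gene's strand, from RefSeq on GRCm38.p6, at chr4:136886151-136886450 for C1qb, chr4:136892865-136893164 for C1qc and chr17:57228087-57228386 for C3, all on the minus strand. Capitals mark the matches to the motifs searched.
C1qb: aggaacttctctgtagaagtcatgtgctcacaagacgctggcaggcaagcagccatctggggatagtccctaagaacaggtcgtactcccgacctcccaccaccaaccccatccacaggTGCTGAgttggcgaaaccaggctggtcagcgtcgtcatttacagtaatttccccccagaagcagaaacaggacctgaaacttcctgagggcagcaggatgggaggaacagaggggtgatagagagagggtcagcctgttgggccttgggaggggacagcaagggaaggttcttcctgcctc
C1qc: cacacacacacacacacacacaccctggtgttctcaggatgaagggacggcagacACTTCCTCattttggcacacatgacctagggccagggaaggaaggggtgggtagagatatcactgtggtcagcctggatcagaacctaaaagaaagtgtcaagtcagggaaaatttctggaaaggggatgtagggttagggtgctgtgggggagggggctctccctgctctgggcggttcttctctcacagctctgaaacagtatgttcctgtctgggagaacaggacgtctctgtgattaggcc
C3: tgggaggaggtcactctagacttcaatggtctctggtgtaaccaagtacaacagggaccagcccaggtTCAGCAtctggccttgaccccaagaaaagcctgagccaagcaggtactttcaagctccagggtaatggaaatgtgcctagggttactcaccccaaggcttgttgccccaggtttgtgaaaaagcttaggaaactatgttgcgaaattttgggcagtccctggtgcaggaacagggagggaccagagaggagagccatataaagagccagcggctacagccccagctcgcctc

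Motifs were chosen after the values had been seen and were searched on both strands of the 6 promoters with an entry (C1qb, C1qc, C3, C3ar1, C5ar1 and Cfp). Positions are counted from the RefSeq start. For C1qc and C5ar1 that start lies well inside the gene span given above, which is from GENCODE, so positions from the GENCODE start differ. The PU.1 motif GAGGAAGT, recognised by the myeloid factor PU.1 and present in 3.202% of 32851 mouse promoters of the same length, was found in C1qc alone, on the opposite strand from position -195. The MAF motif TGCTGA, present in 19.485% of promoters, was found in C1qb at -131, C3 at -182, C3ar1 at -144 and C5ar1 at -17. The STAT motif TTCNNNGAA (8.298% of promoters) had no match in these windows, and Cfp had none of the motifs.

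Across all monocyte-macrophage cells none of the 8 genes passed the test between knockout and control, and for 5 of them the knockout library lay between the controls. From here on, levels are CPM of the summed cells scaled by TMM (trimmed mean of M values) factors unless said otherwise, and they follow both the level within cells and the mix of cells. C1qa was at 234 in control 1, 178 in control 3 and 218 in knockout 4. C1qb was at 488, 397 and 474, and C1qc at 209, 156 and 195, in the same order of libraries. For every C1q chain the knockout thus lay within the range of the controls. The log2 fold changes of knockout over control were 0.10 ± 0.20 (SE), 0.12 ± 0.18 and 0.11 ± 0.21. C3 lay at 255, 295 and 272, a log2 difference of 0.0059 ± 0.16. Cfp lay at 231, 176 and 220, again with the knockout between the controls (0.13 ± 0.20).

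The knockout lay above both controls for the anaphylatoxin receptors and Cfb. C5ar1 was at 416 in control 1, 371 in control 3 and 544 in knockout 4, a log2 difference of 0.49 ± 0.16. Its unadjusted p was 0.0180 and its edgeR adjusted p over all genes was 0.482, so it did not pass. C3ar1 was at 191, 134 and 223 (0.48 ± 0.22, edgeR adjusted p = 0.623). Cfb was the scarcest member, with 153, 241 and 130 UMIs in all, or 3.80, 3.38 and 4.44 CPM (0.33 ± 0.27, edgeR adjusted p = 0.768). In the quasi-likelihood test of edgeR 0 of 8 members were called, 1 had an unadjusted p under 0.05 and DESeq2 called 0. Among all genes tested, 27 of 14703 (0.184%) were called by edgeR and 1240 had an unadjusted p under 0.05. The median log2 difference was 0.13 over the members and -0.0097 over all genes.

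**Figure D1:**
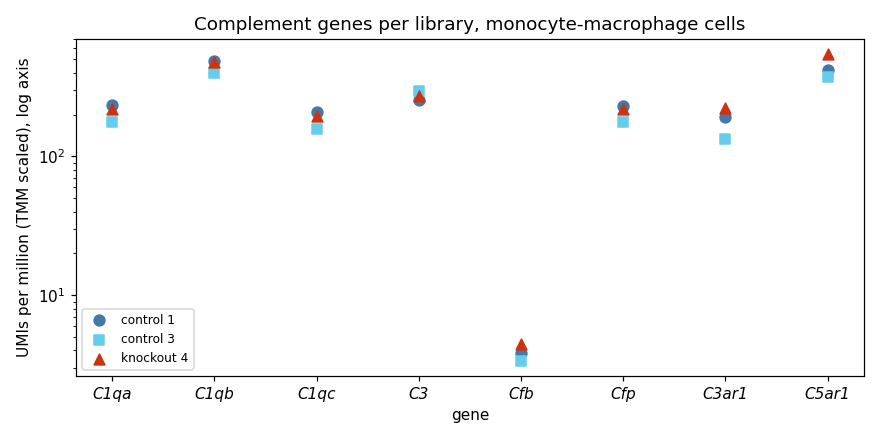
Level of each of the 8 genes (x axis) in CPM after TMM scaling, on a log axis, in the summed monocyte-macrophage cells of the 2 control libraries and the knockout library, 1 point per library. C5ar1 (544 against 416 and 371) and C3ar1 (223 against 191 and 134) were above both controls in the knockout, and the C1q chains lay between them.

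Between cell groups the C1q chains differed widely. They were highest in the MHC class II-high and lipid-associated-like groups and lowest in the S100a8/S100a9-high group. In MHC class II-high cells C1qb was at 820 in control 1, 710 in control 3 and 1082 in knockout 4, and in lipid-associated-like cells it was at 781, 897 and 962. Arg1-high cells followed at 681, 594 and 646 and the remaining cells at 558, 596 and 492, ranges that overlap each other but not the first pair. Patrolling-like cells were at 330, 227 and 289, inflammatory monocyte-like cells at 251, 170 and 178 and S100a8/S100a9-high cells at 112, 131 and 64.7. Patrolling-like cells were above inflammatory monocyte-like cells in 3 of 3 libraries, although their ranges overlap. C1qa and C1qc kept this order below the leading pair, with C1qa from 340 to 546 in MHC class II-high cells down to 16.4 to 38.6 in S100a8/S100a9-high cells, and C1qc from 352 to 416 in lipid-associated-like cells down to 21.1 to 55.2.

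Against inflammatory monocyte-like cells of the same libraries, the chains rose in 5 groups and fell in 1. The log2 differences of C1qa, C1qb and C1qc were 2.57 ± 0.11, 2.14 ± 0.11 and 2.15 ± 0.10 in MHC class II-high cells, and 2.59 ± 0.14, 2.20 ± 0.13 and 2.30 ± 0.11 in lipid-associated-like cells. In Arg1-high cells they were 1.93 ± 0.10, 1.75 ± 0.09 and 1.90 ± 0.09, and in the remaining cells 1.77 ± 0.09, 1.51 ± 0.08 and 1.59 ± 0.09. Patrolling-like cells showed the smallest rise, by 0.65 ± 0.09, 0.55 ± 0.08 and 0.52 ± 0.09, and these 3 calls were lost without the library block. At the stricter marker threshold (4 of 5 markers) 2 members in place of 3 were called higher. There C1qc was at 96.6, 41.9 and 68.5 in control 1, control 3 and knockout 4. Inflammatory monocyte-like cells held 49.6, 42.9 and 47.2 at their own stricter threshold. In S100a8/S100a9-high cells the chains were lower by log2 values of -1.42 ± 0.19, -0.94 ± 0.15 and -1.04 ± 0.21 (edgeR adjusted p from 0.00126 to 0.0146). These calls were lost without control 1, without the library block and at 2 times the marker threshold, where the differences shrank to -0.46, -0.37 and -0.21. With DESeq2 1 member in place of 3 was called lower, so not all chains kept their call.

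At its low end C1q was near its level in lymphocyte-gated cells in some libraries. Lymphocytes do not transcribe C1q, yet the few T, NK and B cells that passed the filters held C1qa at 65.3, 0 and 0 CPM (not TMM scaled), C1qb at 221, 53.2 and 53.5, and C1qc at 89.8, 0 and 71.3. A count of 0 allows up to 26.6 CPM in control 3 and 53.5 in knockout 4 (3 counts of the lymphocytes' UMIs). Within control 1 all 3 chains were lower in S100a8/S100a9-high cells than in lymphocytes. Within control 3 all 3 were higher there (38.6, 131 and 55.2). In knockout 4, C1qa (16.4) was under the limit that a count of 0 allows, C1qb (64.7) was above the lymphocyte value and C1qc (21.1) below it. Inflammatory monocyte-like cells, the reference of the group contrasts, held 99.3, 251 and 99.7 in control 1, against 65.3, 221 and 89.8 in its lymphocytes. In knockout 4 they held C1qa at 63.1 and C1qc at 71.8, close to the limit and to the lymphocyte value. Their C1qb there (178) and all chains in control 3 (63.0, 170 and 65.3) lay further above. Whether the C1q UMIs of lymphocytes came from free RNA or from doublets with myeloid cells, which were not removed, was not tested. Their level is therefore not a floor shared by all cells. The part of such UMIs in the contrasts was not tested. With each cell thinned to 1000 UMIs, 5 of 69 lymphocytes had a C1qa UMI (7.25%, exact 95% interval 2.39 to 16.1), against 9.89% of 15554 monocyte-macrophage cells. For C1qb the shares were 5.80% and 18.4%, and for C1qc 2.90% and 10.8%. Lymphocytes held 122432, 112682 and 56066 UMIs in all, which limits these values.

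C1q was concentrated in few cells. At 3000 UMIs per cell, C1qb was detected in 29.4%, 24.9% and 23.2% of cells of control 1, control 3 and knockout 4, C1qa in 17.1%, 13.9% and 12.5%, and C1qc in 21.3%, 16.1% and 17.1%. With all UMIs the C1qb shares were 40.8%, 34.7% and 31.2%. In control 1, 65.3% of 3575 cells had no chain and 12.3% had all 3, and the values were 70.4% and 8.74% in control 3 and 72.4% and 9.16% in knockout 4. The 10% of cells with most C1q held 70.8%, 77.4% and 80.2% of the C1q UMIs, whereas the top 10% for C3 held 39.6%, 37.0% and 40.2% of the C3 UMIs. Even in MHC class II-high cells C1qb was detected in only 41.8%, 40.4% and 42.5% of cells.

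**Figure D2:**
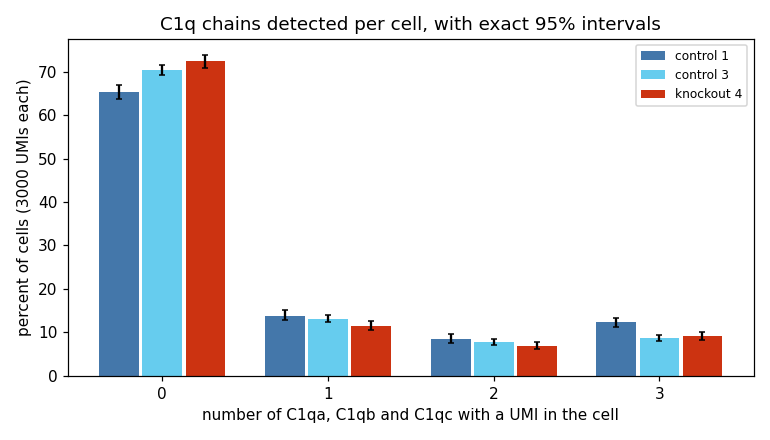
Percent of monocyte-macrophage cells (y axis) in which 0, 1, 2 or 3 of C1qa, C1qb and C1qc had a UMI (x axis), each cell thinned to 3000 UMIs, for the 2 control libraries and the knockout library. Bars are shares of cells with exact 95% intervals that cover counting error only. Cells without any chain made up 65.3% to 72.4%, and cells with all 3 made up 8.74% to 12.3%.

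The share of each chain was close between whole libraries and varied more between cell groups. Of all C1q UMIs, C1qa gave 24.4% to 25.1%, C1qb 52.4% to 54.3% and C1qc 21.4% to 22.5% in the 3 libraries. Over the 21 sums of cell group and library, C1qc stayed between 20.3% and 24.5%, while C1qa ranged from 15.9% to 28.0% and C1qb from 50.9% to 63.3%. These shares are read from 3′ ends and depend on capture, so they do not compare protein chains.

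C3 ran opposite to C1q. It was highest in S100a8/S100a9-high cells, at 425 in control 1, 442 in control 3 and 449 in knockout 4, followed by inflammatory monocyte-like cells at 327, 363 and 316. The other 5 groups lay lower and overlapped their neighbours in this order: patrolling-like cells at 220, 241 and 209, the remaining cells at 213, 228 and 216, Arg1-high cells at 224, 188 and 200, lipid-associated-like cells at 186, 205 and 181, and MHC class II-high cells at 161, 205 and 156. The first group lay above the second, and the second above all others, in 3 of 3 libraries without overlap. Against inflammatory monocyte-like cells C3 was higher by 0.44 ± 0.05 on the log2 scale in S100a8/S100a9-high cells and fell by 0.92 ± 0.06 in MHC class II-high cells, 0.77 ± 0.06 in lipid-associated-like cells, 0.66 ± 0.09 in Arg1-high cells, 0.59 ± 0.06 in the remaining cells and 0.53 ± 0.07 in patrolling-like cells. Over all cells C3 was detected in 48.3%, 51.8% and 48.7% at 3000 UMIs and in 74.1%, 76.7% and 67.7% with all UMIs. At 3000 UMIs it was seen in 76.0%, 70.3% and 68.3% of S100a8/S100a9-high cells and in 33.8%, 36.2% and 32.2% of MHC class II-high cells. At 1000 UMIs a C3 UMI was found in 1.45% of lymphocytes (exact 95% interval 0.0367 to 7.81) and in 24.0% of monocyte-macrophage cells. C3 in lymphocytes was at 8.17, 88.7 and 125 CPM, below every myeloid group of the same library. Hepatocytes are the main source of C3, and the summed level of hepatocyte markers such as Alb and Apoa1 was 130, 241 and 177 CPM. Its part in the C3 values was not tested.

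The alternative pathway genes differed from C3 and from each other. Cfp was highest in Arg1-high cells (312 in control 1, 255 in control 3 and 280 in knockout 4), S100a8/S100a9-high cells (287, 247 and 302) and lipid-associated-like cells (272, 229 and 257), whose ranges overlapped. It was lowest in patrolling-like cells at 123, 85.8 and 56.3, with MHC class II-high cells next at 189, 150 and 116. Against inflammatory monocyte-like cells Cfp rose by 0.58 ± 0.08, 0.56 ± 0.06 and 0.42 ± 0.06 on the log2 scale in the 3 leading groups, and fell by 1.06 ± 0.12 in patrolling-like and by 0.33 ± 0.09 in MHC class II-high cells. In lymphocytes it was at 131, 17.7 and 35.7 CPM, which reaches the patrolling-like values. Cfp was detected in 43.2%, 34.6% and 39.9% of all cells at 3000 UMIs and in 68.3%, 61.5% and 57.5% with all UMIs, and at 1000 UMIs in 17.0% of them against 0 of 69 lymphocytes, which allows a share of up to 4.35% (3 cells of 69), with an exact 95% interval up to 5.21%. Cfb rose in 1 group, the MHC class II-high cells, at 7.67, 5.58 and 7.74 against 2.39, 3.07 and 4.00 in inflammatory monocyte-like cells (1.09 ± 0.20, edgeR adjusted p = 0.00115). Its share of MHC class II-high cells was 2.22%, 1.30% and 2.00% at 3000 UMIs, against 1.20%, 0.848% and 1.17% of all cells, so its levels rest on few molecules.

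The receptors were highest in the Arg1-high and lipid-associated-like groups. C3ar1 was at 339, 352 and 434 in Arg1-high cells of control 1, control 3 and knockout 4, and at 326, 311 and 372 in lipid-associated-like cells. The remaining cells (233, 220 and 227) and MHC class II-high cells (136, 133 and 155) followed without overlap. C3ar1 was lower in S100a8/S100a9-high, inflammatory monocyte-like and patrolling-like cells, whose ranges overlapped, with patrolling-like cells at 100, 59.8 and 29.8. Lymphocytes held C3ar1 at 73.5, 0 and 53.5 CPM, which overlaps the patrolling-like values. C3ar1 was detected in 33.0%, 24.0% and 35.5% of all cells at 3000 UMIs and in 55.0%, 42.0% and 50.6% with all UMIs. In Arg1-high cells the shares at 3000 UMIs were 61.8%, 65.2% and 64.8%. The log2 differences from inflammatory monocyte-like cells were 2.09 ± 0.09 in Arg1-high, 1.92 ± 0.07 in lipid-associated-like, 1.35 ± 0.07 in the remaining and 0.65 ± 0.06 in MHC class II-high cells.

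C5ar1 was detected in 57.5%, 51.5% and 64.8% of cells at 3000 UMIs and in 76.6%, 70.3% and 78.1% with all UMIs. It was at 585, 646 and 730 in lipid-associated-like cells, 596, 525 and 770 in Arg1-high cells and 485, 547 and 679 in the remaining cells, 3 overlapping ranges. The other 4 groups lay between 222 and 433. Lymphocytes held C5ar1 at 57.2, 26.6 and 143 CPM, below each myeloid group of the same library, and at 1000 UMIs 1.45% of them had a C5ar1 UMI against 31.8% of monocyte-macrophage cells. C5ar1 rose by 1.10 ± 0.06, 1.04 ± 0.07 and 0.88 ± 0.05 on the log2 scale in the first 3 groups and by 0.31 ± 0.05 in MHC class II-high cells.

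Counted over the members, 6 rose and 2 fell in MHC class II-high cells, 6 rose and 1 fell in lipid-associated-like and in Arg1-high cells, 5 rose and 1 fell in the remaining cells, 3 rose and 2 fell in patrolling-like cells, and 2 rose and 3 fell in S100a8/S100a9-high cells, each of 8 tested with edgeR. Many genes differ between marker-defined groups: among all genes tested, 13.1% were higher and 13.1% lower in MHC class II-high cells, 20.9% and 19.4% in lipid-associated-like cells, 15.3% and 15% in Arg1-high cells, 16.8% and 16% in the remaining cells, 6.44% and 6.24% in patrolling-like cells, and 2.68% and 2.95% in S100a8/S100a9-high cells. The median log2 difference of the members was 0.87, 1.51, 1.40, 1.12, 0.23 and -0.18 in these groups, and that of all genes was between -0.0023 and 0.012 in each. The 3 C1q chains moved together (Pearson r of 0.99 to 1.00 over the sums of cell group and library), so the members are not 8 separate observations. The shares over all genes were not matched for level, and genes with more counts are called more readily. In S100a8/S100a9-high cells the count of 5 fell to 0 without the library block, to 2 without control 1 and to 3 with DESeq2. Over all genes the count of 602 fell to 6, 172 and 281 in the same settings. Without the block the calls of Cfp and C5ar1 in MHC class II-high cells and of Cfp in lipid-associated-like cells were lost too.

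**Figure D3:**
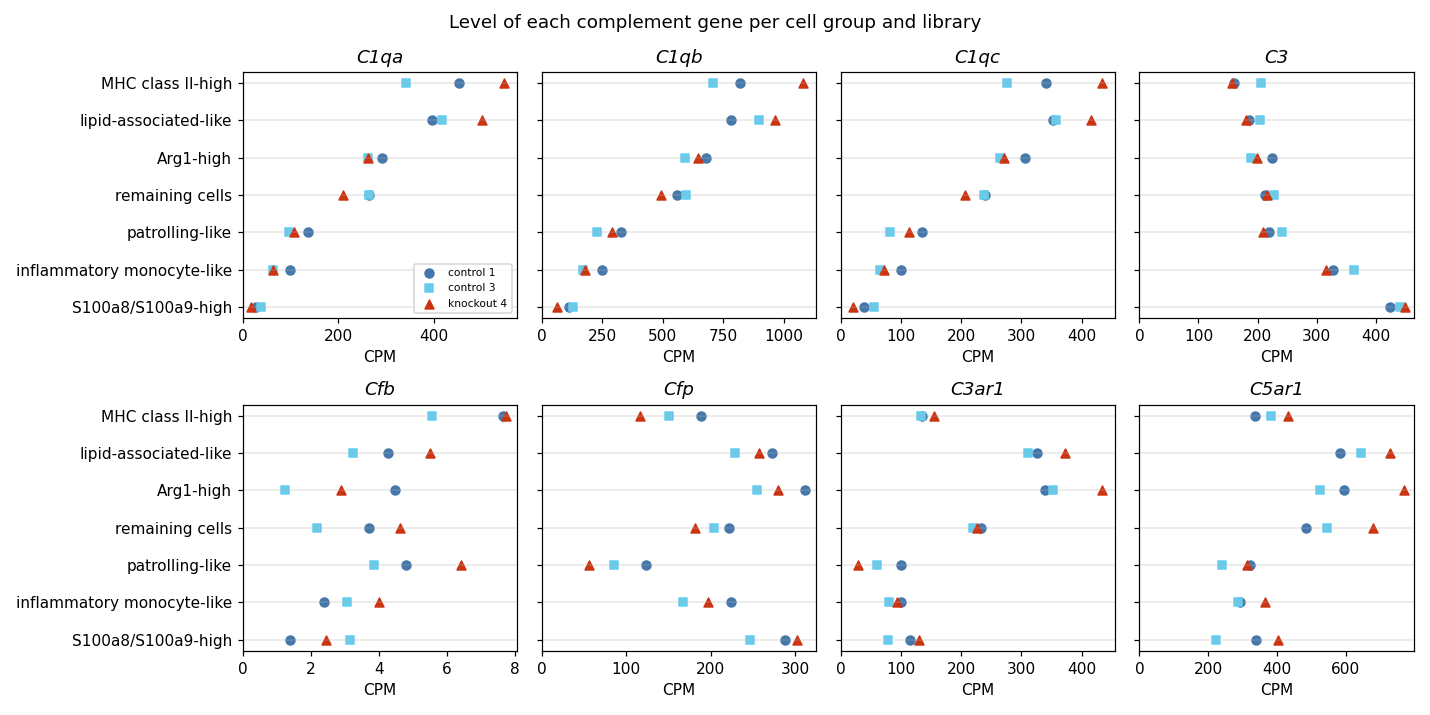
CPM after TMM scaling (x axis, from 0) of each gene in the 7 marker-defined cell groups (rows), with 1 point for each of the 2 control libraries and the knockout library. The C1q chains peaked in MHC class II-high and lipid-associated-like cells, C3 in S100a8/S100a9-high cells (425 to 449), and C3ar1 and C5ar1 in Arg1-high and lipid-associated-like cells.

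**Figure D4:**
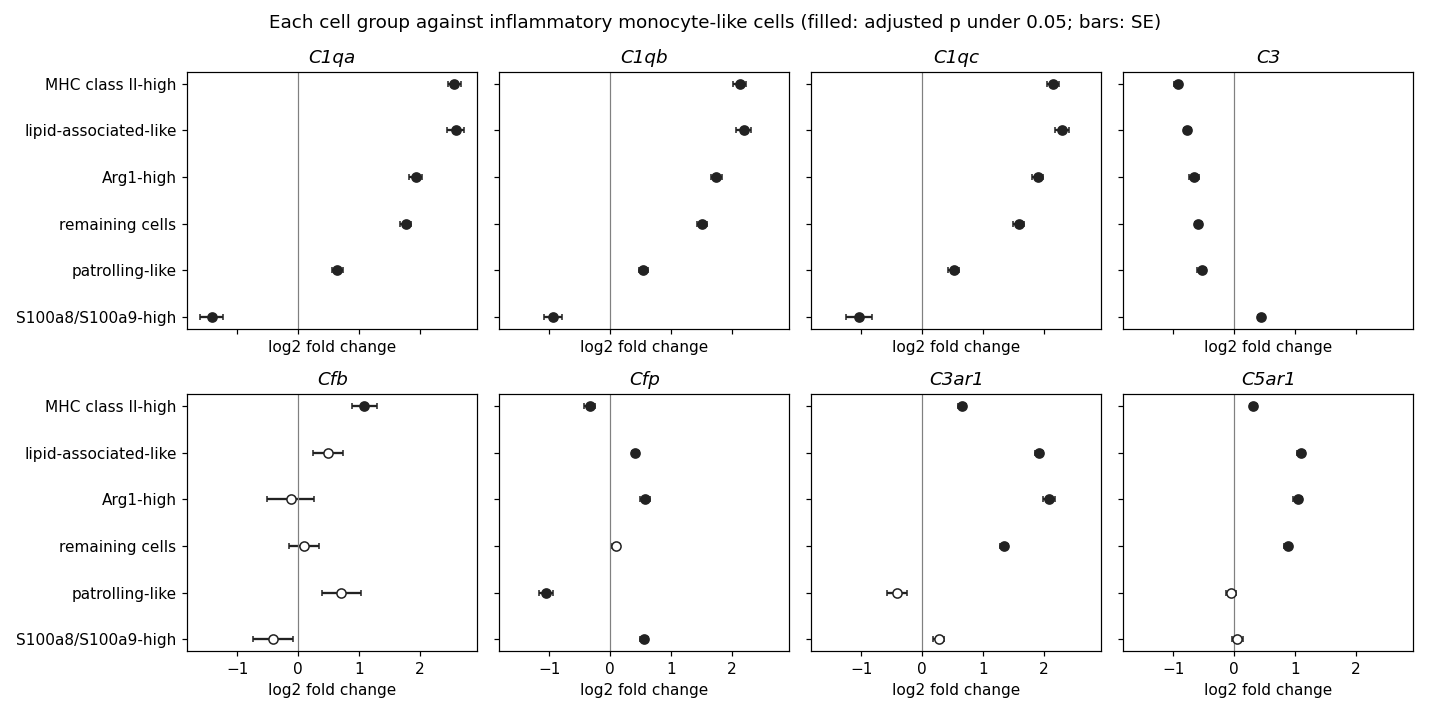
Log2 fold change (x axis) of each gene in 6 marker-defined cell groups (rows) against inflammatory monocyte-like cells of the same 3 libraries. Points are edgeR estimates, bars are standard errors, and filled points passed the adjusted threshold of 0.05. C3 lay left of 0 in 5 groups and right of 0 in S100a8/S100a9-high cells, the reverse of the C1q chains.

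Over the 21 sums, the Pearson correlation of log2 levels was 0.99 to 1.00 between pairs of C1q chains, -0.92 to -0.94 between C3 and the chains, and 0.89 between C3ar1 and C5ar1. Cfp was uncorrelated with the chains (-0.04 to 0.01). These sums share 3 libraries and their gates, so the values describe the pattern and carry no test. Among 7350 genes, those most like the mean of the C1q chains were Mrps6 (0.97), Clic4 (0.94), Pparg (0.94), Tlr1 (0.94), P2ry6 (0.94) and Rgs1 (0.93). The closest to C3 were I830127L07Rik (0.96), Mgst1 (0.96) and Sec11c (0.95), and to Cfb H2-M3 (0.83), Bcl2a1a (0.80) and Impdh2 (0.75). For Cfp they were Lgals1 (0.96), Arl3 (0.92) and Usmg5 (0.92), for C3ar1 2610001J05Rik, Mt1 and Dab2 (each 0.97) and for C5ar1 Lilr4b (0.98), Sdcbp (0.97) and Cstb (0.97).

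Within cell groups the knockout library differed from the controls in a direction that varied with the gene and the group. In S100a8/S100a9-high cells the chains were lower in the knockout: C1qa at 28.3 and 38.6 in the controls against 16.4, C1qb at 112 and 131 against 64.7, and C1qc at 38.7 and 55.2 against 21.1. The log2 differences were -1.01 ± 0.26 (edgeR adjusted p = 0.0575), -0.90 ± 0.20 (edgeR adjusted p = 0.0278) and -1.14 ± 0.25 (edgeR adjusted p = 0.0225). Of 7 members tested there (all but Cfb), 2 were called, against 2.08% of 9921 genes. The count was 0 with DESeq2, with library totals, in thinned cells, without high-UMI cells and at 2 times the marker threshold. Calls over all genes fell from 206 to 46, 107, 103, 100 and 38 in these settings. Without high-UMI cells the levels, not TMM scaled, were 95.1 and 70.6 in the controls against 56.5 for C1qb and 30.2 and 30.2 against 16.6 for C1qc, and the log2 differences shrank to -0.52 and -0.82. In control 3 alone, C1qb had been at 134 and C1qc at 56.2 with those cells. The levels lay below those of lymphocytes in control 1 and above them in control 3, and the part of free RNA or doublets in the difference was not tested. The SEs in this group rest mostly on the spread of other genes, with a prior of 14.7 beside 1 residual degree of freedom.

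In MHC class II-high cells the chains lay higher in the knockout than in both controls, C1qa at 451 and 340 against 546, C1qb at 820 and 710 against 1082, and C1qc at 341 and 276 against 434. The log2 differences were 0.47 ± 0.20, 0.50 ± 0.15 and 0.50 ± 0.18, and none passed (edgeR adjusted p from 0.942 to 0.994). Dendritic cells were not removed, and their part in this group was not tested. The order of the libraries depended on the cells kept. Without high-UMI cells, and not TMM scaled, C1qa lay at 510 and 351 in the controls against 489, between them, C1qb at 914 and 742 against 965, and C1qc at 384 and 281 against 392. In thinned cells C1qc lay between the controls, at 363 and 269 against 354. Cfp ran the other way, at 189 and 150 against 116 (-0.53 ± 0.21, edgeR adjusted p = 0.994). In this group 0 of 8 members were called by edgeR and 0 by DESeq2, and 0% of 10332 genes were called with edgeR. An unadjusted edgeR p under 0.05 was seen for 4 members and for 454 of the 10332 genes. Only 1 member had one without high-UMI cells (461 genes) and 1 in thinned cells (436 genes), and 1 had an unadjusted p under 0.05 with DESeq2 (106 genes).

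C5ar1 was above both controls in the knockout in 6 of 7 groups, and between them in patrolling-like cells. The log2 difference was 0.39 ± 0.13 in inflammatory monocyte-like cells (edgeR adjusted p = 0.807), 0.53 ± 0.20 in S100a8/S100a9-high cells (edgeR adjusted p = 0.249) and 0.42 ± 0.16 in the remaining cells (edgeR adjusted p = 0.281). With every cell group given equal weight, an alternative chosen after seeing the data, the difference over all cells was 0.35 in place of 0.49. The knockout library also held more Arg1-high cells, the group with the highest C5ar1 level there, and its part in the difference was not tested further. C3ar1 was above both controls in 4 groups, between them in 2 and below both in patrolling-like cells. With equal weights its difference over all cells shrank from 0.48 to 0.16.

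In lipid-associated-like cells 0 of 8 members were called by edgeR and DESeq2 (0.288% of 11100 genes with edgeR), with 1 unadjusted edgeR p under 0.05, that of C1qa at 394 and 417 in the controls against 500 (0.33 ± 0.14). In inflammatory monocyte-like cells 0 of 8 were called by either tool (0% of 12361 genes with edgeR), and in the remaining cells 0 of 8 (1.37% of 11589 genes with edgeR), each with 1 unadjusted edgeR p under 0.05, that of C5ar1. Among all genes, an unadjusted edgeR p under 0.05 was seen for 1017 in lipid-associated-like, 716 in inflammatory monocyte-like and 1221 in the remaining cells. Without high-UMI cells C1qa in lipid-associated-like cells no longer had one. Patrolling-like and Arg1-high cells were under 200 in a library and were not tested. Whether the opposite signs of C1q in S100a8/S100a9-high and MHC class II-high cells differ was not tested.

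**Figure D5:**
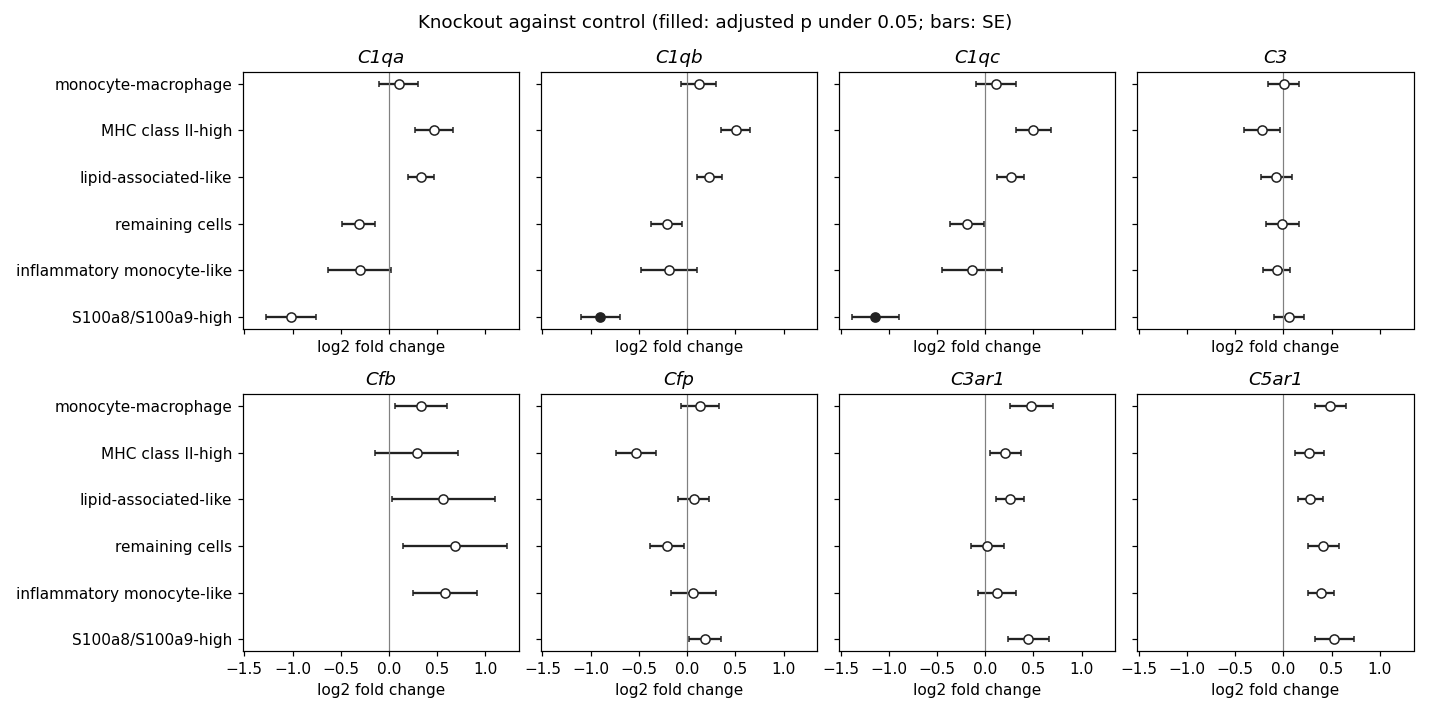
Log2 fold change of the knockout library over the 2 control libraries (x axis) for each gene, in all monocyte-macrophage cells and in the 5 cell groups with at least 200 cells per library (rows). Points are edgeR estimates, bars are standard errors, and the filled points (C1qb and C1qc in S100a8/S100a9-high cells) passed the adjusted threshold of 0.05. C5ar1 lay right of 0 in every row.

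The contrast between MHC class II-high and inflammatory monocyte-like cells was itself wider in the knockout for C1q. The log2 ratio of the groups was 2.18 in control 1, 2.43 in control 3 and 3.11 in knockout 4 for C1qa, 1.71, 2.06 and 2.60 for C1qb, and 1.77, 2.08 and 2.59 for C1qc. For Cfp it was -0.25, -0.16 and -0.76. The interaction was called for these 4 of 8 members, with values of 0.75 ± 0.11 for C1qa (edgeR adjusted p = 9.37e-06), 0.66 ± 0.09 for C1qb (3.59e-06), 0.61 ± 0.11 for C1qc (0.000595) and -0.60 ± 0.11 for Cfp (0.000704), against 1% of 11548 genes. The SEs come from a fit with 1 residual degree of freedom and a prior of 52.9 over all genes. They thus rest mostly on the spread of other genes. For each C1q chain the 2 control ratios lay further apart than the SE. The interaction calls did not hold across settings. Without cells of over 2 times the median UMI count, which are fewer in the knockout, 0 were called, C1qa turned to -0.045, and C1qb and C1qc were 0.067 and 0.034. In that setting C1qa in inflammatory monocyte-like cells was at 65.4, 41.4 and 62.4 CPM (not TMM scaled), against 98.5, 60.6 and 63.1 with those cells. In cells thinned to 3000 UMIs 1 member was called, and at 2 times the marker threshold 0. Calls over all genes fell from 116 to 2 without high-UMI cells, to 33 in thinned cells and to 56 at that threshold.

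Of the other complement genes, a list of 50 symbols by role with 51 identifiers, 30 were tested between knockout and control and edgeR called 0, with 4 at an unadjusted p under 0.05. Among all 14703 genes tested, 1240 were under that value. Most were scarce in these cells: 33 identifiers had under 1 CPM and 5 had none, among them Cfd, the factor D protease. The classical and lectin group was led by Fcnb, a ficolin, at 6.59, 4.00 and 5.73 CPM, Colec12, a scavenger collectin, at 4.05, 3.10 and 2.59, and C4b at 2.41, 3.44 and 3.14. Of the terminal components, C8g, C9 and Hc (the gene of C5) were the highest, each under 1 CPM in every library. Among regulators, C1qbp lay at 115, 94.8 and 76.9 and Cr1l at 52.0, 55.3 and 49.6. The receptor group was led by Calr, a chaperone that also binds C1q, at 825, 921 and 1001, Lrp1, its partner in uptake, at 470, 446 and 474, and the integrin chain Itgb2 at 424, 421 and 494.

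Some of these genes also differed between cell groups. Against inflammatory monocyte-like cells, on the log2 scale, Fcnb fell by 2.56 ± 0.30 in MHC class II-high cells and was higher by 2.14 ± 0.15 in S100a8/S100a9-high cells. C1qbp was higher by 0.99 ± 0.07 and Calr by 0.58 ± 0.06 in lipid-associated-like cells. Over the list, 8 of 17 tested genes were higher and 2 lower in lipid-associated-like cells, against 20.9% and 19.4% of all genes, and 5 of 19 were higher and 3 lower in MHC class II-high cells, against 13.1% each way. In Arg1-high cells 5 of 16 were higher and 3 lower (15.3% and 15% of all genes), and in the remaining cells 8 of 18 and 2 (16.8% and 16%). In patrolling-like cells 2 of 15 were higher and 4 lower (6.44% and 6.24%), and in S100a8/S100a9-high cells 2 of 16 and 1 (2.68% and 2.95%).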

How the data were processed

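UMI counts per gene and cell were deposited by the authors as a filtered matrix per library. Per the submitters' processing notes, bcl2fastq and Cell Ranger 3.0.2 with GRCm38 were used. Barcode calling and the treatment of intronic reads are not stated there. The genes and the lists were chosen with earlier results of these data known, and the marker thresholds were set after seeing marker levels and group sizes.

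Cells needed 500 genes or more and no more than 10% mitochondrial UMIs. Cells with 2 or more markers and at least 0.1% of UMIs from T and NK cell, B cell, mature neutrophil, endothelial or stellate lists were removed. Cells were thinned to 3000 UMIs for gating, in the order patrolling-like (3 of 5 markers), S100a8/S100a9-high (5 UMIs), Arg1-high (5), lipid-associated-like (8), MHC class II-high (15) and inflammatory monocyte-like (8). Cells under 3000 UMIs (12.3%, 9.27% and 16.7%) entered no group.

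Counts were summed per library and tested over all genes with edgeR 4.0.16 (TMM, filterByExpr, glmQLFit, two-sided glmQLFTest, Benjamini-Hochberg threshold 0.05) in R 4.3.3. Group contrasts and the interaction had library as a block. Knockout against control and the interaction had 1 residual degree of freedom, and these fits take the spread of the control libraries for the knockout library. SEs and p-values of edgeR also draw on the spread of all genes tested. The prior degrees of freedom were 5.83 for knockout against control over all cells and 3.38 to 35.2 within groups. In group contrasts they were 9.29 to 18.4. DESeq2 1.42.0, other scalings, filters, depths and thresholds were alternatives. The code was tested on simulated counts. Intervals are Clopper-Pearson and cover counting error only. Gene coordinates are from GENCODE. Named genes were the 8 members, the 3 most abundant of each role group of the complement list, any of that list called in the knockout comparison, and for likeness the 6 (C1q) or 3 genes with the highest Pearson r of log2(CPM + 1) among those with a mean of at least 10 CPM. A gene that this rule names is not reported here. Other list genes named across cell groups were chosen after their values were seen.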

Additional observations from a re-analysis of the deposited data

Results flagged for a closer look

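The knockout effect differed between MHC class II-high and inflammatory monocyte-like cells for 4 of the 8 genes, by an edgeR interaction test with library as a block. Of all genes tested 1% were called. The knockout side is 1 library, and the SEs rest mostly on the spread of other genes. The difference of the log2 effects was 0.75 for C1qa, 0.66 for C1qb, 0.61 for C1qc and -0.60 for Cfp. The ratio of the 2 cell groups in the knockout library lay outside the values of both controls for each of the 4 genes. Cells with over 2 times the median UMI count were 8.36% of control 1, 11.1% of control 3 and 2.46% of the knockout library, and without them none of the 4 was called. Calls over all genes also fell, from 116 to 2.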

How the results depend on the processing

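Of 113 counts of called members under an alternative, 100 stayed within 1.5 times the reported count. For knockout against control in S100a8/S100a9-high cells the reported 2 became 0 at 2 times the marker threshold, in thinned cells, with DESeq2, with library totals and without high-UMI cells, and 4 with no filter on low counts. Without the library (replicate) block, 2 in place of 5 members were called in patrolling-like and 0 in place of 5 in S100a8/S100a9-high cells. Over all genes the calls fell from 1331 to 240 and from 602 to 6. In S100a8/S100a9-high cells DESeq2 called 3 members, and leaving out each library gave 2 to 7. Without high-UMI cells 6 members were called in patrolling-like cells, beside 1598 of all genes. The interaction count of 4 became 0 at 2 times the threshold, 1 in thinned cells and 0 without high-UMI cells, where C1qa turned to -0.045, and C1qc turned to -0.061 in thinned cells. The cause was not tested.

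Knockout differences near 0 over all monocyte-macrophage cells changed sign. C3 was -0.040 with library totals and -0.016 with no filter, and C1qa -0.050 in thinned cells. With cell groups weighted equally, an alternative chosen after seeing the data, C3 was -0.069 and Cfp -0.087. Leaving out each control gave -0.10 to 0.32 for C1qa, -0.036 to 0.29 for C1qb, -0.097 to 0.35 for C1qc, -0.086 to 0.099 for C3 and -0.065 to 0.36 for Cfp, values with no test. Of 418 differences between cell groups 398 kept their direction and call, and 20 kept their direction but lost the call. Knockout differences, the interaction among them, were less stable. Of 199 under an alternative, 163 kept their sign and stayed called or not called, whatever their size. Where no test was possible, these 163 moved by less than the SD of the controls. Most had not been called at first, so an unchanged status does not mean an unchanged value. Another 12 changed sign, 19 lost the call, 2 gained it and 3 moved by more than the SD of the controls. Of 48 shares of cells with a UMI, recomputed with all UMIs or with up to 20% mitochondrial UMIs, 24 left the exact interval. Of 112 mean control levels per gene and cell group, recomputed at 2 times the marker threshold and with up to 20% mitochondrial UMIs, 31 moved by more than the SD of the controls, all of them at the stricter marker threshold. No paired analysis was possible because the control and knockout libraries share no replicate number. Depth limits Cfb and the lymphocyte values, which rest on few UMIs.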
